A study of Saccharomyces cerevisiae with 4 samples.

Results

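The proteasome genes of *S. cerevisiae* followed here are 33 of the 6301 open reading frames (ORFs) listed on the arrays. The rule lists them by ORF name from the known composition of the particle and uses no measured ratio, and all 33 symbols matched the gene table used for names. They comprise 14 subunits of the core particle (7 alpha and 7 beta), 18 subunits of the regulatory particle (8 in the lid and 10 in the base) and RPN4, which encodes the transcription factor of these genes and not a subunit. Each of the 4 two-color arrays, carrying PCR-amplified ORFs, hybridized cDNA from S288c cells in nitrogen-poor medium together with cDNA from S288c cells in nitrogen-rich medium. The nitrogen-poor cells had spent 12 h in minimal medium (MM) with 0.025% ammonium sulfate and no amino acids or adenine, and the nitrogen-rich reference was synthetic complete medium (SC), in which cells grew at 30 °C into mid log phase. All cDNA was primed with oligo-dT plus a multi-targeted primer (MTP), a degenerate primer chosen to anneal within many mRNAs but not in ribosomal or transfer RNA. By title, 2 arrays carried minimal medium in Cy5 (MM-Cy5, replicates 1 and 2) and the other 2 carried synthetic medium in Cy5 (SC-Cy5, replicates 1 and 2). The channel descriptions name the opposite dyes but sort the arrays into the same pairs.

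Every value is the log2 of signal in nitrogen-poor medium over signal in nitrogen-rich medium, so a positive value means more signal in nitrogen-poor cells. Replicates were separate reverse transcription reactions, and the number of cultures behind them is not given in the sources used here. The p-values therefore measure the spread between these arrays, which may be technical. Values were present for 5548 to 5992 ORFs per array, and limma was fitted to the 5956 ORFs that had a value on 3 or 4 arrays. A gene was called at an adjusted p of 0.05 or less (limma, two-sided, Benjamini-Hochberg over all ORFs fitted).

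The proteasome degrades proteins that carry chains of ubiquitin. Its core particle is a barrel of stacked rings in which the outer alpha rings form the gate and the inner beta rings hold the proteolytic sites. The regulatory particle caps the barrel: the base binds substrates and unfolds them with a ring of ATPases, and the lid removes the ubiquitin chain. In yeast Rpn4 activates most genes of the particle and is itself degraded by it within minutes, which couples proteasome synthesis to proteasome activity. Proteasome and vacuole are the routes by which yeast cells break down protein, and both are of interest where nitrogen is scarce.

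Of the 31 proteasome subunits that could be fitted, 15 were lower in nitrogen-poor medium, whereas RPN4 was higher. With RPN4 included, 32 members were fitted, of which 15 were lower, 4 were higher (RPN4, PRE1, RPN12 and RPN13) and 13 did not pass the test. The members' share of calls, 59.4%, lay near the 65.3% of all 5956 ORFs that were called. By direction, 46.9% of members were called lower, against 31.5% of all ORFs, and 12.5% were called higher, against 33.8%. The mean lay below 0 for 20 of the 32 members and for 47.4% of all ORFs. The changes were small, with only RPN4, PRE6 and RPN2 changed by at least 1.5-fold, while 24.6% of all ORFs reached that size. The 31 fitted subunits had a median log2 ratio of -0.14 and ranged between -0.68 and 0.32, and their SD was 0.26. All ORFs had a median of 0.03 with quartiles of -0.30 and 0.33 and an SD of 0.68. A ratio is relative to the labeled mRNA of the whole culture, so less transcript per cell and fewer cells that express the gene cannot be told apart.

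**Figure D1:**
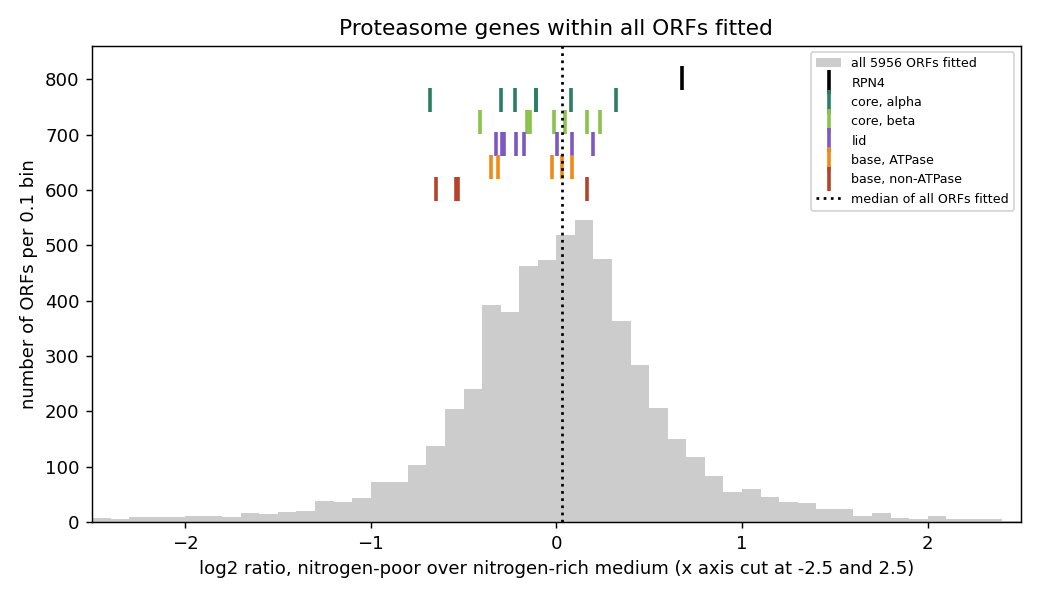
Histogram of the mean log2 ratio (nitrogen-poor over nitrogen-rich medium, x axis, without the far tails) of all 5956 fitted ORFs, as the number of ORFs per bin (y axis), with a tick for each fitted proteasome gene by subcomplex above it and a dotted line at the median of all ORFs. The 31 subunits sit between -0.68 and 0.32, inside the bulk of the distribution and more often left of its median. RPN4, at 0.68, lies to the right of every subunit but within the spread of all ORFs (SD 0.68).

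RPN4 (YDL020C), the activator of the proteasome genes, had log2 ratios of 0.61 on MM-Cy5 array 2, 0.77 on SC-Cy5 array 1 and 0.64 on SC-Cy5 array 2, and no value on MM-Cy5 array 1. It was the highest of all members on each array that measured it. Its mean of 0.68 ± 0.08 (SD, n = 3) corresponds to a 1.60-fold higher level in nitrogen-poor medium, with a 95% interval of 0.50 to 0.85 on the log2 scale and an adjusted p of 0.000434 (limma). No fitted subunit had a mean that reached the lower end of that interval. The highest, PRE5 (YMR314W), averaged 0.32, but its own 95% interval ran up to 0.61 and overlapped that of RPN4.

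**Figure D2:**
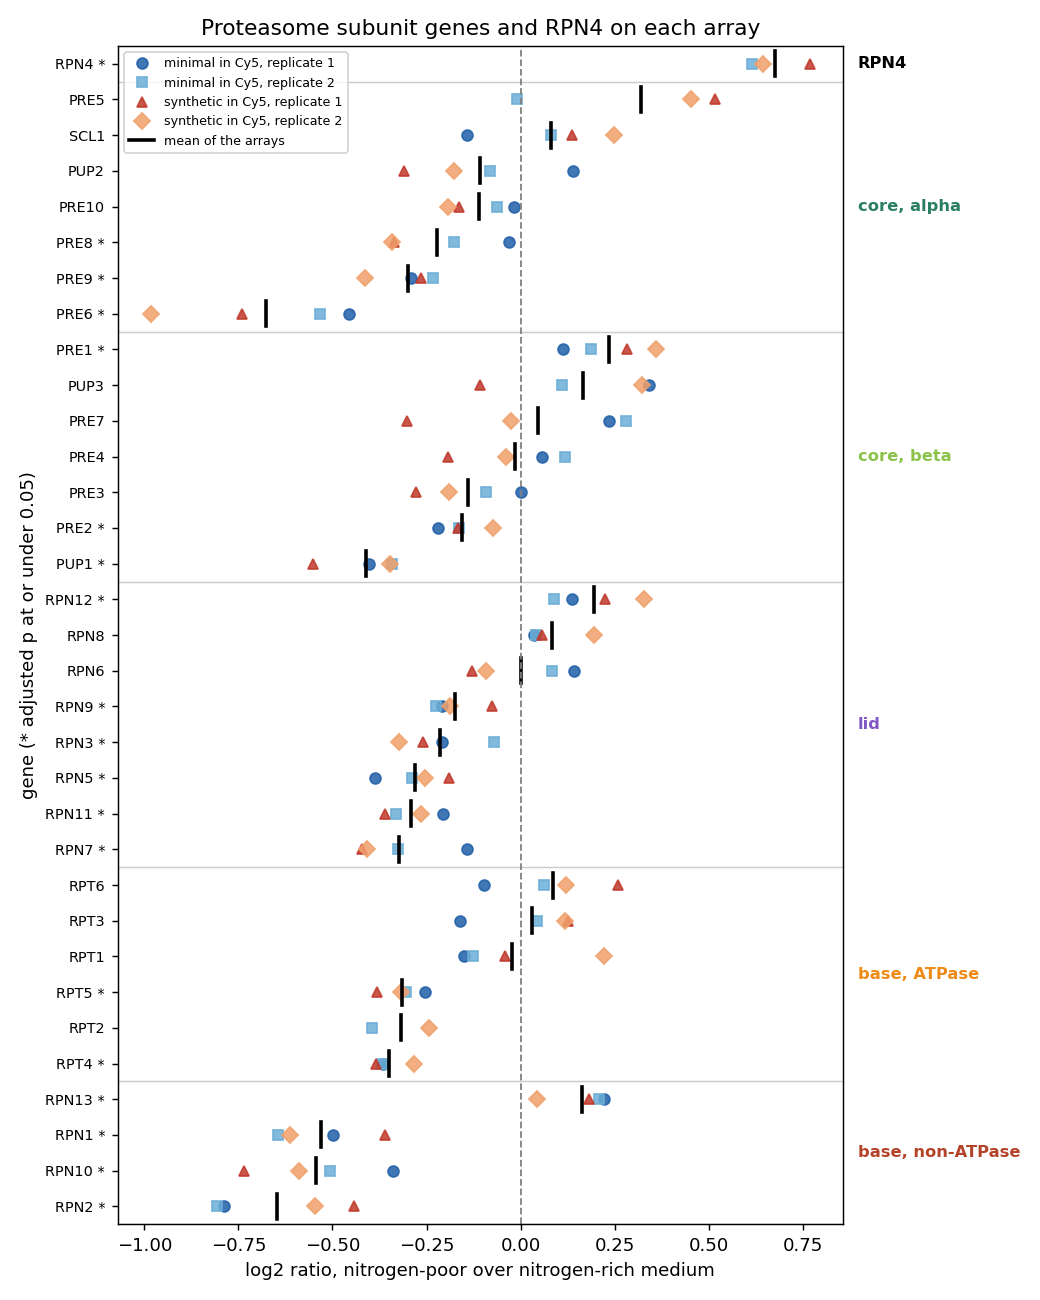
Log2 ratio, nitrogen-poor over nitrogen-rich, (x axis) of RPN4 and the 32 subunit genes (y axis, grouped by subcomplex and ordered by mean) on each of the 4 arrays. Symbols mark the arrays, black bars the mean of the arrays and asterisks an adjusted p at or under 0.05. The points of RPN2, RPN1, RPN10, PRE6 and PUP1 lie at or below -0.34 on every array, and those of RPN4 lie at 0.61 or above.

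Among the 7 alpha subunits, which form the gate of the core, PRE6 (YOL038W), PRE9 (YGR135W) and PRE8 (YML092C) were lower, none was higher and 4 did not pass the test. Of all ORFs, 31.5% were lower and 33.8% higher. PRE6, which encodes alpha4, was the lowest of all subunits, with -0.46 and -0.53 on the MM-Cy5 arrays and -0.74 and -0.98 on the SC-Cy5 arrays. All 4 arrays placed it below 0, and the SC-Cy5 pair placed it lower than the MM-Cy5 pair. Its mean was -0.68 ± 0.24 (SD, n = 4), or 1.60-fold lower, with an adjusted p of 0.000805 (limma). PRE9, which encodes alpha3, the alpha subunit that yeast can live without, averaged -0.30 ± 0.08 (adjusted p = 0.00352). PRE8, which encodes alpha2, averaged -0.22 ± 0.15 (adjusted p = 0.0302). This last call was lost, with adjusted p-values of 0.0759 to 0.103, when MM-Cy5 array 2 or either SC-Cy5 array was left out.

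The remaining alpha genes spread around 0. PRE5 (alpha6) had -0.01 on MM-Cy5 array 2 but 0.52 and 0.45 on the SC-Cy5 arrays. Its mean of 0.32 ± 0.29 (n = 3) was the highest of the subunits and did not pass, with an adjusted p of 0.0550. It passed when the arrays were centered on their medians (adjusted p = 0.0459) and without MM-Cy5 array 2 (adjusted p = 0.0116). It also passed in the fit without MM-Cy5 array 1, which held no value for it (adjusted p = 0.0364). Without SC-Cy5 array 1 (mean 0.22) or SC-Cy5 array 2 (mean 0.25), PRE5 did not pass. Nor did PRE5 pass with the arrays scaled to equal spread or with a replicate block. SCL1 (YGL011C, alpha1) had -0.14 and 0.08 on the MM-Cy5 arrays and 0.14 and 0.25 on the SC-Cy5 arrays. PUP2 (YGR253C, alpha5) showed the opposite lean, with 0.14 and -0.08 on the MM-Cy5 arrays and -0.31 and -0.18 on the SC-Cy5 arrays. PRE10 (YOR362C, alpha7) stayed close to 0 with -0.02, -0.06, -0.16 and -0.19 in the same order. None of these means, which were 0.08, -0.11 and -0.11, passed the limma test (adjusted p = 0.369, 0.277 and 0.137), although PRE10 was below 0 on all 4 arrays.

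The 7 beta subunits line the inner chamber, and 3 of them carry the active sites: PRE3 (YJL001W, beta1, caspase-like), PUP1 (YOR157C, beta2, trypsin-like) and PRE2 (YPR103W, beta5, chymotrypsin-like). PUP1 was the lowest beta gene, with -0.40 and -0.34 on the MM-Cy5 arrays and -0.55 and -0.35 on the SC-Cy5 arrays. These values do not come near 0, and their mean of -0.41 ± 0.10 (SD, n = 4) is a 1.33-fold lower level (adjusted p = 0.00107, limma). PRE2 had -0.22 and -0.16 on the MM-Cy5 arrays and -0.17 and -0.07 on the SC-Cy5 arrays, a mean of -0.16 ± 0.06 (adjusted p = 0.0415). PRE3 was at -0.0003 and -0.09 on the MM-Cy5 arrays and at -0.28 and -0.19 on the SC-Cy5 arrays, a mean of -0.14 ± 0.12 that did not pass (adjusted p = 0.0979). The call of PRE2 was lost without any one of MM-Cy5 array 1, MM-Cy5 array 2 and SC-Cy5 array 1 (adjusted p = 0.0854 to 0.153). All 3 genes with active sites were thus below 0 on all 4 arrays, although the change of PRE3 was within the error of the test.

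The 4 beta genes without active sites had a median of 0.11, against -0.16 for the genes with active sites, a grouping made after the values were seen and given without a test. PRE1 (YER012W, beta4) was the only core gene called higher, with 0.11 and 0.19 on the MM-Cy5 arrays and 0.28 and 0.36 on the SC-Cy5 arrays. It lay above 0 on all arrays, at a mean of 0.23 ± 0.11 (adjusted p = 0.0148, limma), and missed the threshold without SC-Cy5 array 2 (adjusted p = 0.0548). PUP3 (YER094C, beta3) had 0.34 and 0.11 on the MM-Cy5 arrays and -0.11 and 0.32 on the SC-Cy5 arrays, and did not pass (mean 0.17 ± 0.21, adjusted p = 0.133). The single array below 0 decided that outcome, since the other 3 averaged 0.26 with an adjusted p of 0.0305. PRE7 (YBL041W, beta6) was at 0.24 and 0.28 on the MM-Cy5 arrays but at -0.30 and -0.03 on the SC-Cy5 arrays. PRE4 (YFR050C, beta7) behaved alike, with 0.06 and 0.12 on the MM-Cy5 arrays and -0.19 and -0.04 on the SC-Cy5 arrays. The sign of these last 2 genes followed the dye orientation, and their means of 0.05 and -0.01 did not pass.

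In the lid, 5 of 8 subunits were lower, RPN12 (YFR052W) was higher and 2 did not pass, beside 31.5% lower and 33.8% higher of all ORFs. RPN7 (YPR108W), one of the large scaffold subunits that form the lid's horseshoe, was the lowest, with -0.14 and -0.32 on the MM-Cy5 arrays and -0.42 and -0.41 on the SC-Cy5 arrays (mean -0.32 ± 0.13, adjusted p = 0.00492, limma). RPN11 (YFR004W), the deubiquitinase that cleaves chains off substrates, followed with -0.21 and -0.33 on the MM-Cy5 arrays and -0.36 and -0.27 on the SC-Cy5 arrays (mean -0.29 ± 0.07, adjusted p = 0.00362). RPN5 (YDL147W), another horseshoe subunit, was close to it at -0.28 ± 0.08 (adjusted p = 0.00496). The lid values of these 3 genes were below 0 on every array and overlapped one another. RPN3 (YER021W) averaged -0.22 ± 0.11 (adjusted p = 0.0206) and RPN9 (YDR427W) -0.17 ± 0.07 (adjusted p = 0.0299). Both of these smaller changes failed the threshold without some single arrays. RPN3 failed without MM-Cy5 array 1 or either SC-Cy5 array (adjusted p = 0.0509 to 0.0737), and RPN9 failed without either MM-Cy5 array or SC-Cy5 array 2 (adjusted p = 0.0782 to 0.132).

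RPN12, the last subunit to join the lid during its assembly, had 0.14 and 0.09 on the MM-Cy5 arrays and 0.23 and 0.33 on the SC-Cy5 arrays. It thus lay above 0 on every array, unlike the 5 lid genes that were lower, and averaged 0.20 ± 0.11 (adjusted p = 0.0290, limma). The call did not hold without MM-Cy5 array 2 or either SC-Cy5 array (adjusted p = 0.0510 to 0.101). RPN8 (YOR261C), the inactive partner of Rpn11, had 0.04, 0.04 and 0.06 on the first 3 arrays and 0.20 on SC-Cy5 array 2, and its mean of 0.08 ± 0.08 did not pass. RPN6 (YDL097C), a horseshoe subunit that clamps lid to core, had 0.14 and 0.08 on the MM-Cy5 arrays and -0.13 and -0.09 on the SC-Cy5 arrays. Its signs followed the dye orientation, and the mean was 0.0009 ± 0.13.

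The base holds a ring of 6 ATPases, which pull substrates into the core, and 4 subunits that are not ATPases. RPT4 (YOR259C) and RPT5 (YOR117W) were the ATPase genes called lower. RPT4 had -0.37 and -0.37 on the MM-Cy5 arrays and -0.38 and -0.28 on the SC-Cy5 arrays, the tightest values of the members with 4 values (mean -0.35 ± 0.04, 1.27-fold lower, adjusted p = 0.00121, limma). RPT5 had -0.25 and -0.30 on the MM-Cy5 arrays and -0.38 and -0.32 on the SC-Cy5 arrays, overlapping RPT4 (mean -0.32 ± 0.05, adjusted p = 0.00212). RPT2 (YDL007W), whose product helps to open the core's gate, was measured on only 2 arrays, at -0.39 on MM-Cy5 array 2 and -0.24 on SC-Cy5 array 2, and was not fitted. With ORFs on at least 2 arrays admitted, its mean of -0.32 had an adjusted p of 0.0351. The other ATPase genes straddled 0. RPT1 (YKL145W) had -0.15 and -0.13 on the MM-Cy5 arrays and -0.04 and 0.22 on the SC-Cy5 arrays. RPT3 (YDR394W) had -0.16 and 0.04 on the MM-Cy5 arrays and 0.13 and 0.12 on the SC-Cy5 arrays, and RPT6 (YGL048C) had -0.10 and 0.06 on the MM-Cy5 arrays and 0.26 and 0.12 on the SC-Cy5 arrays. Their means of -0.02, 0.03 and 0.09 did not pass, and each was lower on the MM-Cy5 pair than on the SC-Cy5 pair.

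The genes of the base that do not encode ATPases included the most strongly lowered of the regulatory particle. RPN2 (YIL075C), a large toroid protein that tethers other subunits, had -0.79 and -0.81 on the MM-Cy5 arrays and -0.44 and -0.55 on the SC-Cy5 arrays. Its mean of -0.65 ± 0.18 (SD, n = 4) is a 1.57-fold lower level, with an adjusted p of 0.000444 (limma). RPN1 (YHR027C), the other toroid, which receives ubiquitin shuttles and the deubiquitinase Ubp6, had -0.50 and -0.65 on the MM-Cy5 arrays and -0.36 and -0.61 on the SC-Cy5 arrays (mean -0.53 ± 0.13, adjusted p = 0.000514). RPN10 (YHR200W), a ubiquitin receptor at the joint of base and lid, had -0.34 and -0.51 on the MM-Cy5 arrays and -0.73 and -0.59 on the SC-Cy5 arrays (mean -0.54 ± 0.16, adjusted p = 0.000796). The arrays of these 3 genes overlapped, and none of their values was above -0.34. RPN13 (YLR421C), a second ubiquitin receptor, which docks on Rpn2, differed from them with 0.22 and 0.21 on the MM-Cy5 arrays and 0.18 and 0.04 on the SC-Cy5 arrays. It was called higher at 0.16 ± 0.08 (adjusted p = 0.0425). This call was lost on centering the arrays (adjusted p = 0.120) and without either MM-Cy5 array or SC-Cy5 array 1 (adjusted p = 0.0938 to 0.160).

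Core, lid and base were then set side by side. The median log2 ratio was -0.11 over the 14 core genes, -0.19 over the 8 lid genes and -0.32 over the 9 fitted base genes. Each had 5 genes called lower and 1 called higher, while 8 core genes, 2 lid genes and 3 base genes did not pass. These equal counts come from 14 core, 8 lid and 9 base genes, so the share called lower was smallest in the core. Of all ORFs, 31.5% were called lower and 33.8% higher. The base was lowest on each array: base minus core was -0.24 and -0.26 on the MM-Cy5 arrays and -0.13 and -0.14 on the SC-Cy5 arrays. Base minus lid was -0.08 and -0.19 on the MM-Cy5 arrays and -0.20 and -0.04 on the SC-Cy5 arrays. Lid minus core had no fixed sign, with -0.16 and -0.07 on the MM-Cy5 arrays and 0.07 and -0.10 on the SC-Cy5 arrays. Over the 4 arrays base minus core averaged -0.19 ± 0.07 (SD), base minus lid -0.13 ± 0.08 and lid minus core -0.06 ± 0.09. Single genes varied within a subcomplex with an SD of 0.26 in the core, 0.19 in the lid and 0.31 in the base. No test was made of the differences, because the genes are measured on the same arrays and are not replicates.

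Within the base the 4 genes that do not encode ATPases had a median of -0.54, although one of them, RPN13, was the highest base gene. The 5 fitted ATPase genes had a median of -0.02, or -0.17 over all 6 when RPT2 was admitted with its 2 values. With RPT2 on the arrays that measured it, the ATPase median was -0.16 and -0.22 on the MM-Cy5 arrays and -0.04 and -0.06 on the SC-Cy5 arrays. It was higher than that of the other base genes on each array, by 0.26, 0.36, 0.36 and 0.51 in the same order. When RPN10 was counted with the lid, which it also contacts, the lid (-0.22) lay below the base (-0.17) and the order turned. Within the core the median was -0.11 for alpha and -0.01 for beta genes, and alpha was the lower on each array. The core also moved most with dye orientation. Its median was -0.04 on the MM-Cy5 pair alone and -0.17 on the SC-Cy5 pair alone, whereas the lid was at -0.18 on either pair and the base at -0.28 and -0.33. The median of all fitted ORFs was itself -0.03 on both MM-Cy5 arrays and 0.06 and 0.11 on the SC-Cy5 arrays. Relative to it, the lid was at -0.14 and -0.11 on the MM-Cy5 arrays and -0.22 and -0.33 on the SC-Cy5 arrays. The base was at -0.22, -0.30, -0.42 and -0.37 and the core at 0.02, -0.04, -0.29 and -0.23 in the same order. Longer genes tended to have lower ratios, with a Spearman rho of -0.46 across the 31 fitted subunits and of -0.21 across the 5504 fitted ORFs with a length in the gene table. These are descriptions across genes, which share the arrays, and the part of length in the subcomplex medians was not tested.

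**Figure D3:**
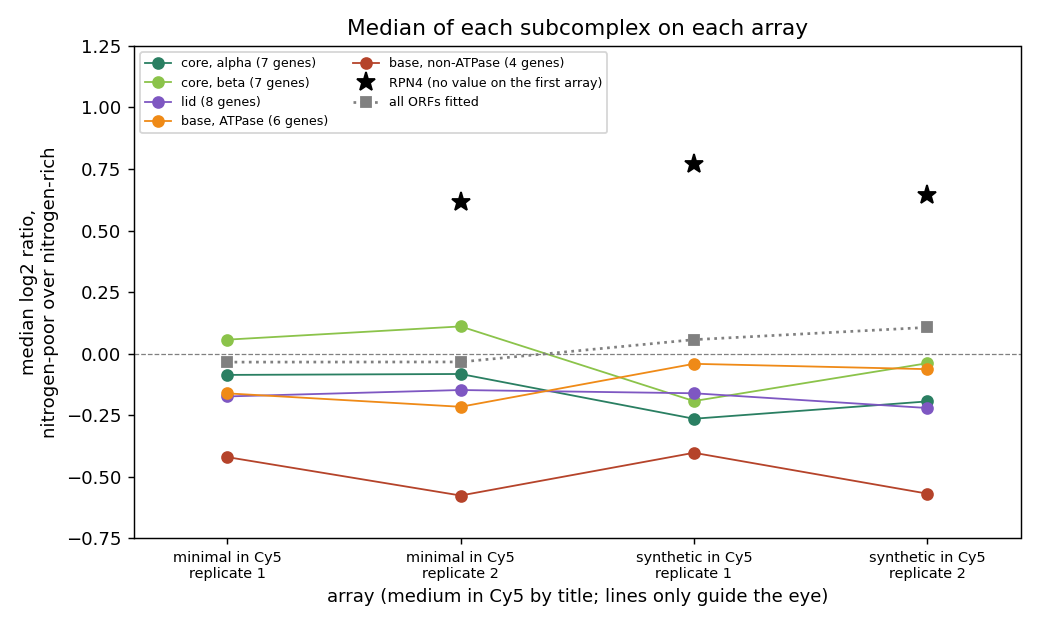
Median log2 ratio, nitrogen-poor over nitrogen-rich, (y axis) of each subcomplex on each of the 4 arrays (x axis), with all fitted ORFs as gray squares and RPN4 as stars on the 3 arrays that measured it; lines only guide the eye. The base genes that do not encode ATPases are lowest throughout, between -0.58 and -0.40, and the beta genes lie above 0 on the MM-Cy5 arrays and below 0 on the SC-Cy5 arrays.

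Calls were compared between dye orientations because every array compares the same media and, by the labels, the pairs differ only in which medium carries which dye. Of the 30 members with 4 values, 17 were below 0 on all arrays and 4 were above 0 on all arrays (PRE1, RPN8, RPN12 and RPN13). That is 21 of 30 with a single sign, close to the 71.8% of all ORFs with 4 values. PRE4, PRE7 and RPN6 were above 0 on both MM-Cy5 arrays and below 0 on both SC-Cy5 arrays, and 7.13% of ORFs with 4 values had opposite signs in the orientations. With a dye orientation term in limma, 0 of 32 members were called, against 0.0168% of all ORFs, and 5 members had an unadjusted p of 0.05 or less, as did 22.0% of all ORFs. The lowest adjusted p of a member was 0.142, for PRE5. Across the subunits the arrays of one orientation correlated at r = 0.896 (MM-Cy5, 30 subunits) and 0.887 (SC-Cy5, 31 subunits), whereas arrays of opposite orientation correlated at 0.543 to 0.799. Over all ORFs the correlations were 0.960 (MM-Cy5) and 0.935 (SC-Cy5) within an orientation and 0.898 to 0.934 between orientations. Subunits and all ORFs were thus both less alike between the orientations than within them. The gap was wider for the subunits, whose ratios also spread less (SD 0.26) than those of all ORFs (SD 0.68).

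**Figure D4:**
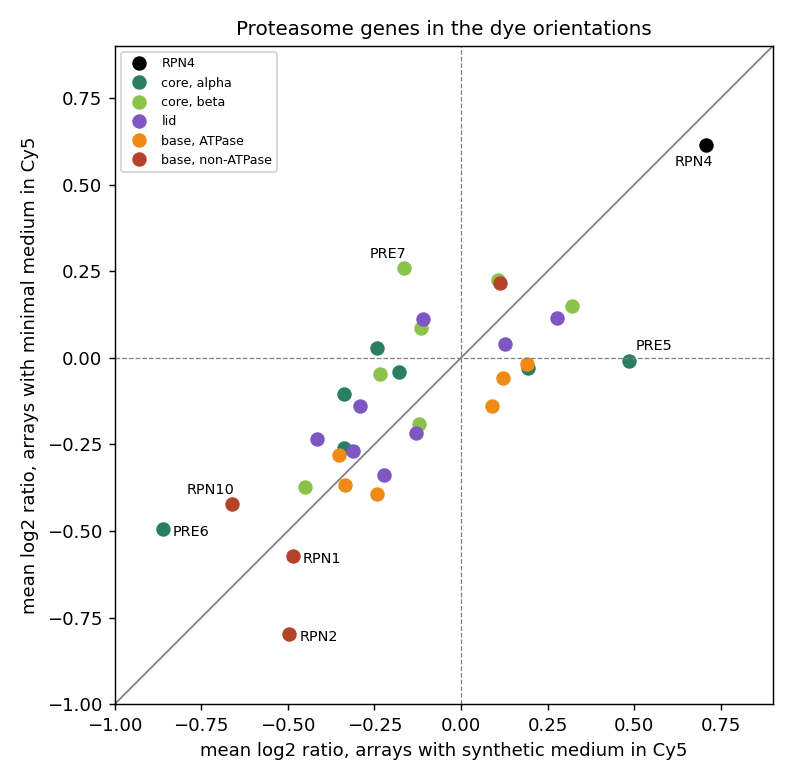
Mean log2 ratio (nitrogen-poor over nitrogen-rich) of each proteasome gene on the arrays with minimal medium in Cy5 (y axis) against the arrays with synthetic medium in Cy5 (x axis), colored by subcomplex, with the line of equality. RPN4 and the group of RPN1, RPN2, RPN10 and PRE6 keep their sign in both orientations, while PRE7 lies above 0 on one axis and below 0 on the other.

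Calls were also counted that held whichever array was left out, after centering and with a dye term. There were 12 such members, or 37.5% of those fitted, against 51.4% of all ORFs. These were RPN4, higher, and 11 subunits, lower: PRE6, PRE9 and PUP1 of the core, RPN5, RPN7 and RPN11 of the lid, and RPN1, RPN2, RPN10, RPT4 and RPT5 of the base. Lower calls of this kind made up 24.9% of all ORFs and higher ones 26.5%. On the MM-Cy5 pair alone 16 members were called, against 67.2% of all ORFs, and 14 of them were among the 19 called on all arrays. On the SC-Cy5 pair alone 16 members were called, against 62% of all ORFs, and 15 of them were among the 19. RPN5, one of the 12, was lost on the SC-Cy5 pair alone (adjusted p = 0.0660, limma), and RPN4 could not be fitted on the MM-Cy5 pair alone. After centering, 19 members were called (4 higher and 15 lower), against 66.7% of all ORFs (33% higher and 33.7% lower). The study's threshold is an unadjusted probability of 0.05 for the observed direction. Applied to the one-sided p of limma, not to the probabilities of the authors' program, it called 21 members, against 75.2% of all ORFs.

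Dedicated chaperones assemble the particle, and of 9 assembly genes 5 were higher, 1 was lower and 3 did not pass, with a median of 0.15, where 33.8% of all ORFs were higher and 31.5% lower. NAS2, a chaperone of the ATPase ring, had 0.41 and 0.56 on the MM-Cy5 arrays and 0.40 and 0.53 on the SC-Cy5 arrays (mean 0.48 ± 0.08, adjusted p = 0.000437, limma). HSM3, another chaperone of that ring, went the other way, with -1.08 and -0.99 on the MM-Cy5 arrays and -1.02 and -0.64 on the SC-Cy5 arrays (mean -0.93 ± 0.20, 1.91-fold lower, adjusted p = 0.000107). These chaperones of the same ring thus stood at opposite ends of the list. IRC25, which guides assembly of the alpha ring, averaged 0.42 ± 0.11 (adjusted p = 0.00120), and its partner POC4 averaged 0.15 ± 0.05 (adjusted p = 0.0491). UMP1, the maturation factor of the core, averaged 0.19 ± 0.08 (adjusted p = 0.0235), and NAS6, also a chaperone of the ATPases, averaged 0.21 ± 0.14 (adjusted p = 0.0352). These smaller increases were less firm. POC4 was lost without any one of the 4 arrays (adjusted p = 0.0555 to 0.175), NAS6 without either MM-Cy5 array or SC-Cy5 array 2 (0.106 to 0.126) and UMP1 without MM-Cy5 array 2 or either SC-Cy5 array (0.0681 to 0.0708). RPN14, PBA1 and ADD66 averaged 0.0021, -0.02 and -0.14 and did not pass, although ADD66 did on centering (adjusted p = 0.0451). On centered arrays 3 assembly genes were higher and 2 lower, as POC4 (adjusted p = 0.113) and NAS6 (0.0690) did not pass.

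Of 12 genes for proteins that bind the proteasome, SEM1, itself a small lid subunit, and SPG5 had no values, and among the other 10 there were 5 lower, 3 higher and 2 that did not pass, with a median of -0.24, beside the 31.5% lower and 33.8% higher of all ORFs. NPL4 and UFD1, cofactors of the Cdc48 segregase that hands substrates to the proteasome, were lower at -0.51 ± 0.19 (adjusted p = 0.00152, limma) and -0.18 ± 0.10 (adjusted p = 0.0362). CDC48 itself had -0.24 and -0.18 on the MM-Cy5 arrays and -0.10 and -0.05 on the SC-Cy5 arrays. It did not pass (adjusted p = 0.0721, limma). On centering it passed as lower (adjusted p = 0.0284, limma). The same held with a dye orientation term (adjusted p = 0.0302, limma) and with same-numbered arrays averaged (adjusted p = 0.0472, limma). The study's threshold also called CDC48 lower. UBP6, the base-bound deubiquitinase, averaged -0.30 ± 0.11 (adjusted p = 0.00487), and BLM10, an alternative cap of the core, averaged -0.33 ± 0.18 (adjusted p = 0.00948). The 3 shuttles that bring ubiquitinated proteins to the base did not move together. RAD23 was lower at -0.31 ± 0.16 (adjusted p = 0.00892), while DSK2 was higher at 0.50 ± 0.01 (n = 3, adjusted p = 0.00101) and DDI1 was higher at 0.17 ± 0.03 (adjusted p = 0.0234). HUL5, a ubiquitin ligase of the regulatory particle, was higher at 0.37 ± 0.32 (adjusted p = 0.0283), with 0.05 and 0.18 on the MM-Cy5 arrays and 0.53 and 0.74 on the SC-Cy5 arrays. ECM29, which clamps core to cap, had -0.70 and -0.78 on the MM-Cy5 arrays, -0.55 on SC-Cy5 array 1 and 0.37 on SC-Cy5 array 2, and did not pass (adjusted p = 0.0870). Without that last array it was at -0.68 (adjusted p = 0.000704), and it also passed on centering (0.0434). The calls of UFD1, DDI1 and HUL5 were also lost without single arrays: UFD1 without MM-Cy5 array 2 or either SC-Cy5 array (adjusted p = 0.0897 to 0.143), DDI1 without either MM-Cy5 array or SC-Cy5 array 2 (0.0601 to 0.111) and HUL5 without either SC-Cy5 array (0.0844 to 0.114). DDI1 was also lost on centering (adjusted p = 0.0613), so that 2 genes of this list were higher and 7 lower on centered arrays.

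Ubiquitin and the enzymes that activate and conjugate it were represented by 11 genes, of which 6 were higher, 0 were lower and 5 did not pass in limma, with a median of 0.18. Of all ORFs, 33.8% were higher and 31.5% lower. At an unadjusted p of 0.05 the count of lower genes was also 0. All 6 were conjugating enzymes (E2), as was every gene of this list except the ubiquitin gene UBI4 and the E1 gene UBA1. UBC5, which conjugates ubiquitin to short-lived and abnormal proteins, had 1.91 and 1.97 on the MM-Cy5 arrays and 1.85 and 1.62 on the SC-Cy5 arrays, a mean of 1.84 ± 0.15 and a 3.57-fold higher level (adjusted p = 3.15e-06). It was the highest gene of any list on every array. Its close paralog UBC4 averaged only 0.18 ± 0.09 (adjusted p = 0.0360), and cross-hybridization between these similar genes cannot be told apart from their own signal. UBC8, which marks a gluconeogenic enzyme for degradation, averaged 1.14 ± 0.11 (2.21-fold higher, adjusted p = 1.18e-05). UBC7 and UBC6, the E2 enzymes of degradation at the endoplasmic reticulum, averaged 0.80 ± 0.11 and 0.42 ± 0.09, and CDC34, the cell cycle E2, averaged 0.48 ± 0.12 on 3 arrays. The call of UBC4 was lost on centering (adjusted p = 0.0762) and without either MM-Cy5 array or SC-Cy5 array 2 (0.0621 to 0.170). UBI4, the stress-inducible polyubiquitin gene, had -0.13 and -0.38 on the MM-Cy5 arrays and 0.20 and -0.19 on the SC-Cy5 arrays and did not pass, and the E1 gene UBA1 (-0.15 ± 0.18) did not either. Both passed as lower with 1 array left out, UBI4 without SC-Cy5 array 1 (adjusted p = 0.0407) and UBA1 without SC-Cy5 array 2 (0.0227). UBC1, UBC13 and RAD6 averaged -0.0036, -0.03 and 0.13 and did not pass.

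Of 7 regulators of RPN4, 4 were lower, 0 were higher and 3 did not pass, beside the 31.5% lower and 33.8% higher of all ORFs. UBR2, the ligase that marks Rpn4 for the proteasome, had -1.84 on MM-Cy5 array 1, -0.40 on MM-Cy5 array 2 and -1.88 and -1.80 on the SC-Cy5 arrays. MM-Cy5 array 2 stood far from the other 3. The mean was -1.48 ± 0.72 (2.79-fold lower, adjusted p = 0.00191, limma), and without that array it was -1.84 (adjusted p = 2.06e-05). UBR1, the ligase of the N-degron pathway, which can also act on Rpn4, had -1.38 and -1.38 on the MM-Cy5 arrays and -1.61 and -1.26 on the SC-Cy5 arrays (mean -1.40 ± 0.15, adjusted p = 8.06e-06). The pair of ligase genes had the lowest means of the 4 ubiquitin and proteasome lists. MUB1, the partner of Ubr2, had -0.43 and -0.14 on the MM-Cy5 arrays and 0.10 and 0.11 on the SC-Cy5 arrays and did not pass. Among transcription factors known to act on the RPN4 promoter, HSF1 averaged -0.26 ± 0.07 (adjusted p = 0.00649) and YAP1 -0.29 ± 0.23 (adjusted p = 0.0290). PDR1, at -0.34 ± 0.41 (adjusted p = 0.0776), and PDR3, at 0.04 ± 0.12, did not pass. The call of YAP1 was lost without either MM-Cy5 array (adjusted p = 0.0822 and 0.101), and that of PDR1 was gained on centering (adjusted p = 0.0321) and without SC-Cy5 array 2 (0.0153). Over the 4 lists 37 of 39 genes were fitted, and 14 were higher, 10 were lower and 13 did not pass, with a median of -0.02. These 24 calls are 64.9% of the genes fitted, near the 65.3% of all ORFs (33.8% higher and 31.5% lower). On centered arrays the split was 10 higher and 14 lower, beside 33% higher and 33.7% lower of all ORFs.

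**Figure D5:**
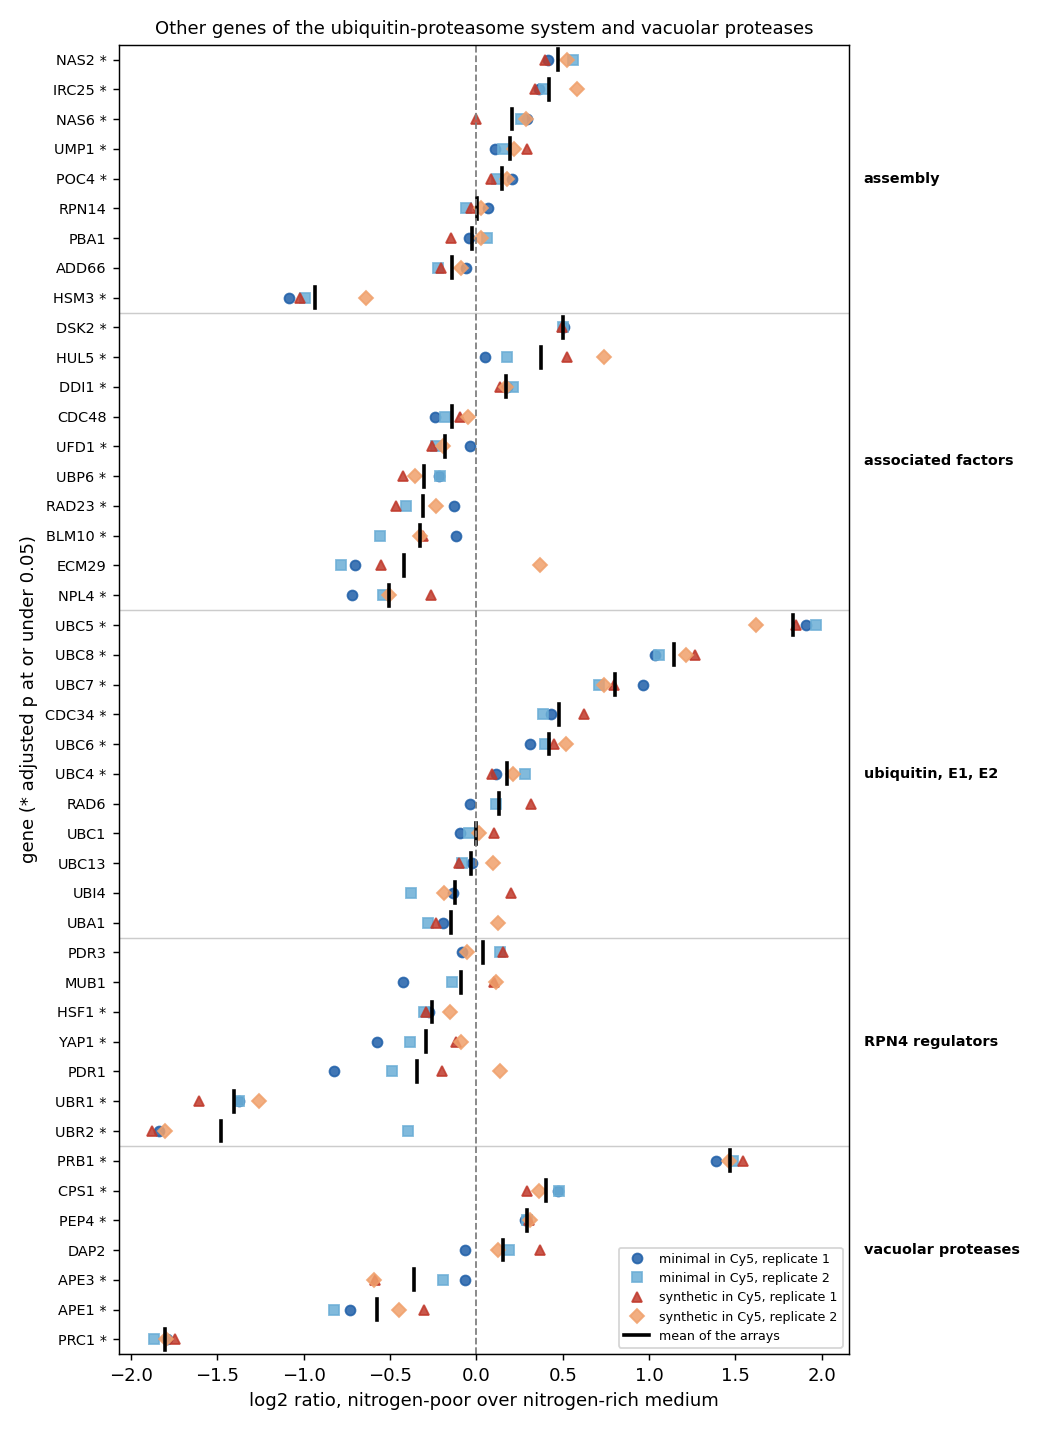
Log2 ratio, nitrogen-poor over nitrogen-rich, (x axis) of the other ubiquitin and proteasome genes and of vacuolar proteases (y axis, grouped by list and ordered by mean) on each of the 4 arrays, with black bars at the mean and asterisks at an adjusted p at or under 0.05. UBC5 and PRB1 lie far to the right, PRC1, UBR1 and UBR2 far to the left, and 1 of the 4 points of UBR2 and of ECM29 sits away from the rest.

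The 7 proteases of the vacuole, the other site of protein breakdown, gave 3 higher, 3 lower and 1 that did not pass, beside the 33.8% higher and 31.5% lower of all ORFs. Among those lower, APE3 was lost without either SC-Cy5 array (adjusted p = 0.0864 and 0.0723, limma). PRB1 (proteinase B) was higher at 1.47 ± 0.06 (2.77-fold, adjusted p = 2.64e-06, limma) and PRC1 (carboxypeptidase Y) was lower at -1.80 ± 0.05 (3.49-fold, adjusted p = 1.28e-06). PEP4, which activates both, was higher at 0.30 ± 0.01 (adjusted p = 0.00222). The vacuolar list thus spread over a wider range, from -1.80 to 1.47, than the proteasome subunits did.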

How the data were processed

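Per the labels and the study's methods, the 4 MTP-primed arrays were scanned on a GenePix instrument, and the authors removed background and scaled the arrays on the mean of well measured spots before they deposited a log2 ratio for each ORF; poorly measured spots are blank. Since scanner files were not used here, only centering and scaling could be varied. The spots are double-stranded PCR products of ORFs, which do not separate strands, and similar genes can cross-hybridize. The number of arrays limits the precision.

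The direction and log2 scale of the columns were set against the published ratio table of the study, with r of 0.964 to 0.983 and slopes of 0.98 to 1.04. Which medium carried which dye stays unknown, since titles and channel descriptions differ. No column was turned. Limma 3.58.1 (R 4.3.3) fitted the mean of the arrays without covariates, for ORFs with at least 3 values, and p-values were adjusted over the 5956 ORFs. Limma took the place of the Bayesian program the authors used. A second fit added dye orientation. The fit was tested on simulated data. Gene names came from the RefSeq R64 gene table.

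The members, the gene lists and the settings were chosen with earlier results of these data known, although the rule for members names the particle's subunits and uses no ratio. The rule for named genes covered all 33 members and the genes of 5 lists. Array values were given for RPN4, the highest and lowest gene of each subcomplex, members that did not pass and members split by dye or with an array apart. Alternatives were to leave out single arrays, to center or scale them, and to add a dye term or a replicate block. Others changed the ORFs kept, the variance or the threshold, averaged same-numbered arrays, and took each dye pair alone, the last chosen after seeing the data. A planned search of promoter motifs was not run, since no promoter sequence was used here. The arrays primed with oligo-dT alone were not analysed here.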

Additional observations from a re-analysis of the deposited data

Results flagged for a closer look

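In 3 of the 71 genes with 4 values examined, 1 array stood apart from the other 3, judged by its gap to the nearest value as a share of the whole range (critical value 0.829). Chance alone gives about 5% of such groups. For RPN8 the gap was 0.876 of the range: SC-Cy5 array 2 read 0.20 and the others 0.04 to 0.06, and without it the mean was 0.04 (adjusted p = 0.570, limma). For NAS6 it was 0.887, with SC-Cy5 array 1 at -0.005 and the others at 0.26 to 0.29, and without it the mean was 0.28 (adjusted p = 0.00980). For UBR2 it was 0.951, with MM-Cy5 array 2 at -0.40 and the others at -1.88 to -1.80.

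In 5 genes both MM-Cy5 arrays had one sign and both SC-Cy5 arrays the other, and the difference between the pairs (MM-Cy5 minus SC-Cy5) did not pass the test of the dye orientation term in limma. It was 0.42 for PRE7 (adjusted p = 0.148), 0.22 for RPN6 (0.221) and 0.20 for PRE4 (0.292) among the subunits, and -0.39 for MUB1 and -0.13 for UBC1 among the other genes. None of these genes passed the test between the media.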

How the results depend on the processing

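The count of members called stayed between 14 and 22 under every alternative run (14 to 16 with an array left out), against 19, while the share of all ORFs called ran between 55.7% and 75.2%, against 65.3%. Those higher numbered 2 to 6, against 4 (2 with a replicate block, 2 to 4 with an array left out and 6 with same-numbered arrays averaged), beside 29.0% to 39.2% of all ORFs. Those lower numbered 12 to 17, against 15, beside 25.6% to 36.7% of all ORFs. The higher count of 2 without SC-Cy5 array 2 left RPN4 and RPN13. RPN4 was called in each fit that held it, at 0.63 to 0.71. It could not be fitted among ORFs with values on all 4 arrays. Among the other ubiquitin and proteasome genes, 15 were called on the SC-Cy5 pair alone (8 higher) where 62% of all ORFs were called, against 24 (14 higher), and 17 to 21 with an array left out (8 to 11 higher). The replicate block gave 9 higher. Over the members, the mean was -0.13 in the lid and -0.24 in the base, and the base median was -0.17 with RPN10 in the lid. Genes near 0 that were not called changed sign with an array left out: PRE4 (-0.058 to 0.045), PRE7 (-0.031 to 0.163), RPN6 (-0.046 to 0.045), RPT1 (-0.106 to 0.018), PBA1 (-0.053 to 0.017), RPN14 (-0.021 to 0.023), UBC1 (-0.039 to 0.026) and MUB1 (-0.155 to 0.025). On centered arrays RPN6 was at -0.023 and RPN14 at -0.022. The cause of these changes was not tested. No member was called by dye orientation under any alternative run.

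Whether same-numbered arrays share more than a number is not given in the sources used here, and their deviations from the pair means correlated at 0.012. With the replicate block 14 members were called, against 58.8% of all ORFs, and PRE2, PRE8, RPN9, RPN12 and RPN13 were not.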

Other observations

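Gene order was taken from the gene table and strand from the W or C in the ORF name. On this basis 21 of the 33 members share an upstream region with a neighbor transcribed the other way. In 18 of these pairs both genes were fitted. The neighbors were spread in direction, with 7 higher, 4 lower and 7 that did not pass, and their median was 0.14. Among all ORFs 33.8% were higher and 31.5% lower, and no such share was worked out for pairs of neighbors. Called together were 3 pairs, all lower (PRE2 with RPL11A, RPT4 with GCD1 and RPT5 with RPO31), and 2 pairs were called in opposite directions (PUP1 and RPN5 lower, beside PET123 and NOP14 higher). These pairs were named after their values were seen. RPN6 lay beside PMT1, a mannosyltransferase gene that was higher at 1.61, while RPN6 was at 0.0009. RPL11A has a near-identical paralog whose signal can reach its spot.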
